A study of Mus musculus with 6 samples.

Results

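The loci of 8 genes that mark fibroblasts or build their matrix were examined in peak lists of 2 histone marks: the transcription factor genes Twist1, Prrx1 and Snai2, the matrix genes Col1a1, Col1a2 and Fn1, the surface antigen gene Thy1 and the intermediate filament gene Vim. Each locus was a fixed window of 10 to 76 kb on the mouse build mm9, and its members were the listed peaks that met the window by at least 1 bp. The windows held 15 of the 38760 peaks in all lists. The genes were chosen by name after peaks of these lists, at Twist1 and Col1a1 among them, had been seen, so the peak positions and widths given for them are a description and carry no test. H3K4me3 peaks were listed at 7 of the 8 loci in treated cells and at 4 of the 8 in untreated cells. Twist1, Fn1 and Vim had a peak in the treated list only, and an untreated peak began 209 bp outside the Twist1 window. Of all treated H3K4me3 peaks, 10.2% had no untreated partner. Prrx1 had no H3K4me3 peak in either list. The paired peaks at the low-coordinate ends of the Col1a1 and Col1a2 windows were narrower in treated cells. Col1a1 had a second, treated-only peak as well, with which its listed H3K4me3 summed to 7838 bp, against 6044 bp without treatment. H3K27me3 was listed at Col1a1 only, in treated cells.

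The lists come from chromatin immunoprecipitation followed by sequencing (ChIP-seq) of mouse embryonic fibroblasts (MEFs) of the strain C57BL/6. One group had been kept for 6 days with a chemical combination that the labels call 6TCF, and the other was the untreated control of day 6. The growth protocol, which is the same for all libraries, places the cells in medium with 15% fetal bovine serum and 40 ng/ml basic fibroblast growth factor. What 6TCF is made of, and how many embryos gave the cells, is not given in the sources used here. Each condition gave 1 library titled H3K4me3, 1 titled H3K27me3 and 1 of input DNA, and differences between the conditions come with no replicate error and no p-value. The antibody field of the labels names H3K4me2 and H3K4me1 in place of the titles' marks. The titles are followed here, and which antibody was used could not be settled. The H3K4me3 lists held 18185 treated and 17168 untreated peaks, the H3K27me3 lists 821 and 1242, and the input lists 604 and 740. A listed peak has a position and a width in bp and nothing else, and read depth is unknown. A window without a listed peak is therefore not shown to lack the mark.

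H3K4me3 is found at the start of genes that are active or held ready for activity, mostly where the DNA is rich in CG dinucleotides, and it spreads over several kilobases at genes that define a cell type. H3K27me3 is laid down by Polycomb complexes at silenced developmental genes. In fibroblasts, Twist1, Snai2 and Prrx1 are transcription factors of mesenchymal identity, Col1a1 and Col1a2 encode the chains of type I collagen, and Fn1 encodes fibronectin. Thy1 (CD90) is a surface glycoprotein used to recognise fibroblasts, and Vim encodes vimentin, their main intermediate filament.

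Promoter sequence was at hand for 4 of the 8 genes, Twist1, Prrx1, Col1a2 and Vim, which between them show a peak in treated cells only (Twist1, Vim), in both lists (Col1a2) and in neither (Prrx1). The sequences are the 250 bases before the RefSeq start in build GRCm38.p6, 5′ to 3′ on the gene's strand, with CG dinucleotides in capitals. That build is not the build of the peak lists, so the bases were not placed under the peaks.

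Twist1, chr12:33957421-33957670, strand +: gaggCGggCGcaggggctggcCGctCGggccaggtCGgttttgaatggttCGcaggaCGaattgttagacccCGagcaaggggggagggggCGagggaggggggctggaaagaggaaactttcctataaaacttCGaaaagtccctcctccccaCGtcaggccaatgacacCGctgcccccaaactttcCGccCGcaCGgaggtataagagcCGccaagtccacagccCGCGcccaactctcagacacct

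Prrx1, chr1:163313651-163313900, strand -: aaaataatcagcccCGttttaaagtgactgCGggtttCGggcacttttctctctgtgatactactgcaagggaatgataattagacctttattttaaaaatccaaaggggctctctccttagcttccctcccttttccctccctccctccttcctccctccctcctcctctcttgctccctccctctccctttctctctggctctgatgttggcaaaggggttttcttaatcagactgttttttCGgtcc

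Col1a2, chr6:4505368-4505617, strand +: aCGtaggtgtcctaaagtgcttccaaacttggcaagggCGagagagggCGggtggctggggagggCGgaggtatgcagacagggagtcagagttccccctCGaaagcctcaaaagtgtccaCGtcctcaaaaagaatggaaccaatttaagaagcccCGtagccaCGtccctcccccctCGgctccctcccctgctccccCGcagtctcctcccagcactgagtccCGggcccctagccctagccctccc

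Vim, chr2:13574061-13574310, strand +: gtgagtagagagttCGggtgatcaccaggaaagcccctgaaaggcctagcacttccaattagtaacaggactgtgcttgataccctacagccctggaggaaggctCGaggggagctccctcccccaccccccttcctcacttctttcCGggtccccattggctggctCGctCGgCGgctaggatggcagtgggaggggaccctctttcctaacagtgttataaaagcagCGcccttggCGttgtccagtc

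These 4 sequences differ in CG content. Twist1 had 18 CG dinucleotides and a base composition of 62.4% G or C, and 78.3% of the 32851 promoters in the table had fewer. Col1a2 had 11 (62% G or C) and Vim 8 (58.4%). Prrx1 had 4 (47.6%), below the median of 6 over all promoters. Prrx1, with no listed H3K4me3 peak, had the fewest CG dinucleotides of the 4, and Twist1, with the widest treated peak, had the most. The order did not hold between Col1a2 and Vim: Col1a2 had more CG dinucleotides and the narrower treated peak (4809 against 6708 bp). In untreated cells it did not hold either: Twist1 and Vim had no listed peak, and Col1a2 had one of 6862 bp. Whether CG content bears on the peaks was not tested.

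Short promoter motifs were searched on both strands in the same 250 bases. The TATA box letters TATAAA were found in Vim, first base 32 bases before the start, and in Twist1, 126 bases before it, and in 12.4% of all promoters. CCAAT, the box bound by NF-Y, was found once in Twist1 (89 bases before the start) and once in Col1a2 (109 bases before it). Vim had it at 196 bases and, on the other strand, at 94 bases, and 33.8% of all promoters held it. GGGCGG, the core of the GC box bound by Sp1, was found in Col1a2 at 205 and 188 bases and on the other strand of Twist1 at 62 bases, and in 32.7% of all promoters. The E-box CANNTG, the kind of site that Twist1 and Snai2 proteins bind, was in none of the 4 sequences and in 66.2% of all promoters. None of the searched letters was found in the Prrx1 sequence. A match shows only that the letters are present.

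**Figure D1:**
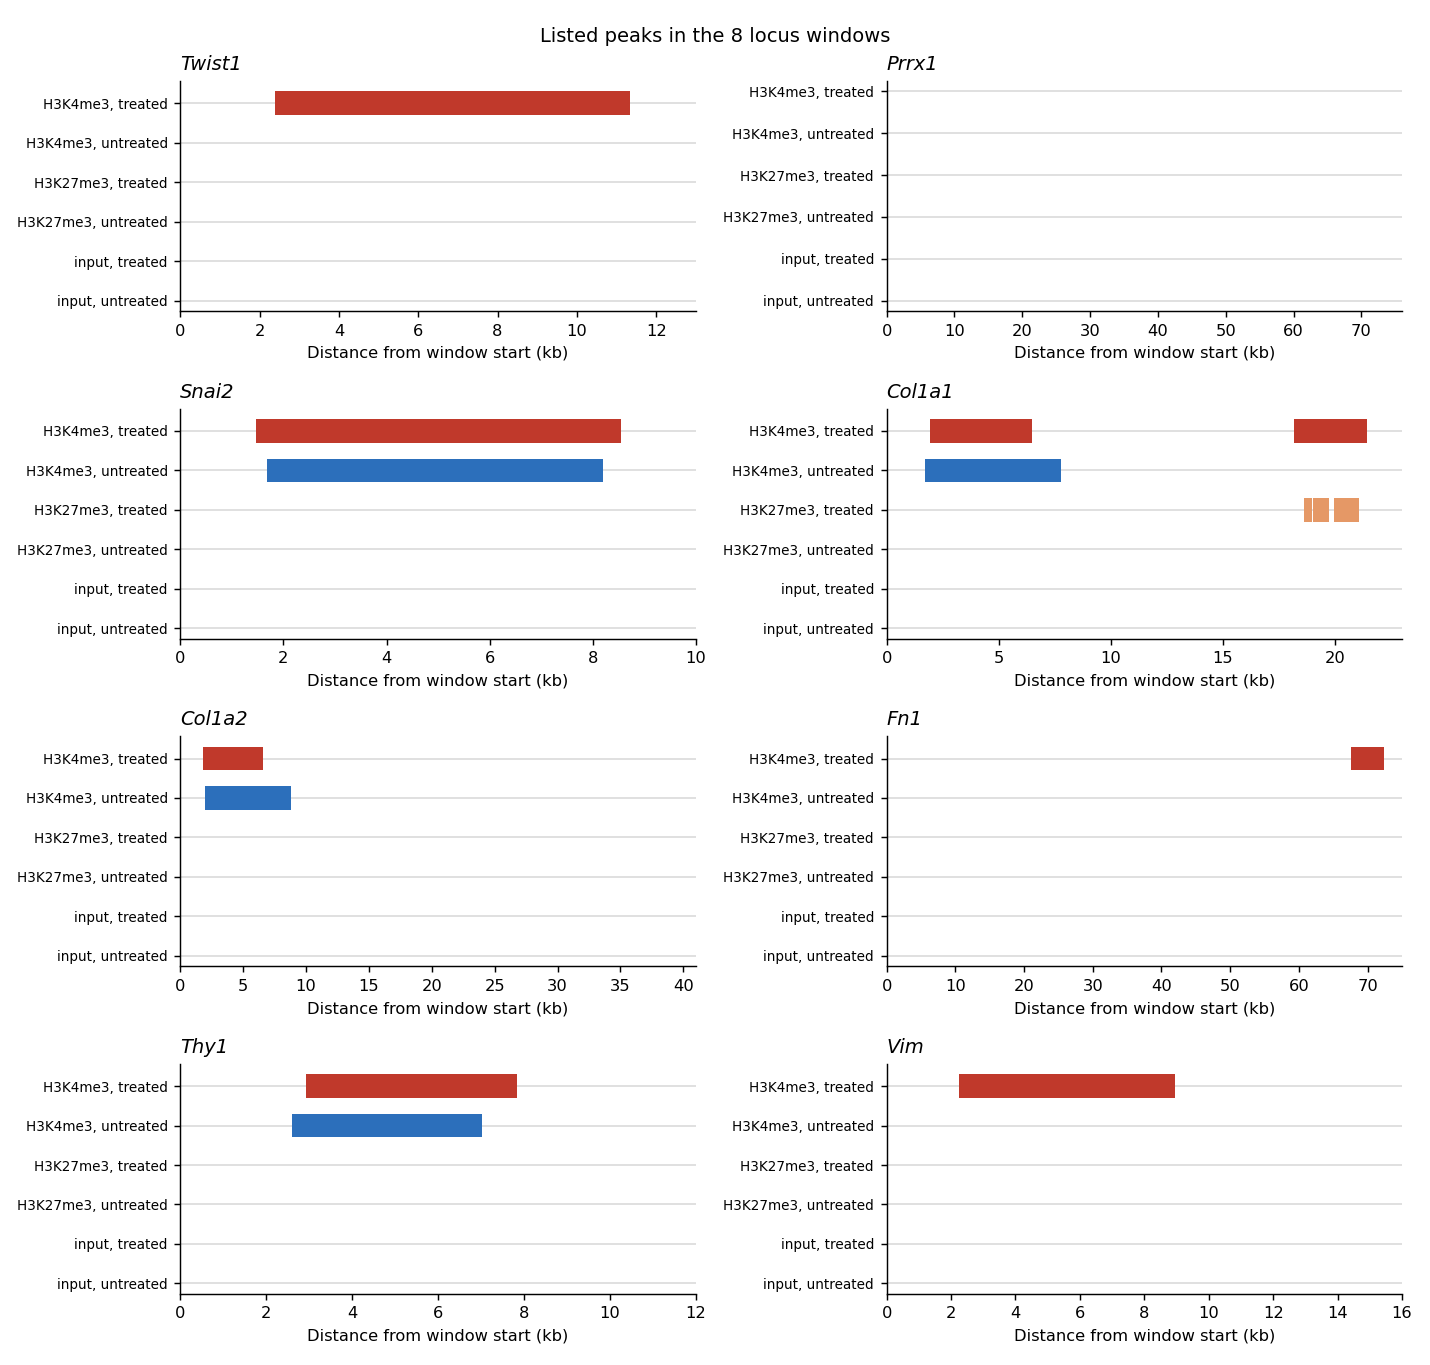
Peaks listed in each of the 8 locus windows, drawn to scale as distance in kb from the low-coordinate end of the window, with 1 row per library. H3K4me3 peaks (dark red treated, dark blue untreated) stand in 7 windows in treated cells and in 4 in untreated cells, H3K27me3 (orange) stands in the Col1a1 window in treated cells, and neither input list has a peak in any window.

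Of the transcription factor genes, Twist1 had the widest H3K4me3 peak of all 8 loci, and it was listed in treated cells only. Twist1 encodes a basic helix-loop-helix factor that drives mesenchymal development. Its treated peak, chromosome 12, 34640400 to 34649338, was 8939 bp wide and filled 68.8% of the 13 kb window. Only 2 treated peaks were wider. The untreated list had no peak in the window. Its nearest peak, 34651210 to 34653921 (2712 bp), began 1871 bp beyond the treated one and 209 bp outside the window, and met no treated peak. From the first base of the treated peak to the last of the untreated one is 13522 bp, whereas the H3K4me3 lists end at widths of 9030 bp (treated) and 9151 bp (untreated). A stretch broader than that has no counterpart in these lists, so whether untreated cells lacked the mark at Twist1 was not tested. On the other side, 23.7 kb below the window and in the direction of Ferd3l, the next protein-coding gene in RefSeq order, a treated-only H3K4me3 peak of 1510 bp (34612752 to 34614261) enclosed an H3K27me3 peak of 351 bp (34613656 to 34614006) of untreated cells.

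Snai2, which encodes the zinc-finger repressor Slug, had a wide H3K4me3 peak in both conditions. The treated peak on chromosome 16, 14704475 to 14711543, was 7069 bp, and the untreated peak, 14704687 to 14711190, was 6504 bp and lay wholly within it. They covered 70.7% and 65.0% of the 10 kb window. The treated peak reached 212 bp further at the low-coordinate edge and 353 bp further at the other. No other H3K4me3 peak was listed in either condition within 100 kb of the window. Snai2 thus had a broad peak standing alone in both lists.

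Prrx1, a homeobox gene of limb and connective-tissue mesenchyme, had no peak of either mark in either condition over its 76 kb window on chromosome 1, and the treated list had no H3K4me3 peak at all between 165080756 and 165287479. The nearest H3K4me3 peak was 39.5 kb above the window in treated cells (165287479 to 165289904, 2426 bp) and 43.4 kb above it in untreated cells (165291412 to 165292875, 1464 bp), and these 2 did not overlap. The next treated H3K4me3 peak below the window was 91.2 kb away, and the next untreated one 500.4 kb away. The nearest input peaks were 6821 kb from the window in treated and 289 kb in untreated cells. Prrx1 was the only one of the 8 loci without a listed peak in any of the 6 libraries.

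Both type I collagen genes kept an H3K4me3 peak near the low-coordinate end of their windows, and in both it was narrower in treated cells. These genes are transcribed towards higher coordinates, and they supply the chains that assemble into the main collagen fibre of connective tissue. At Col1a1 the treated peak, chromosome 11, 94796926 to 94801485, was 4560 bp and the untreated peak, 94796738 to 94802781, was 6044 bp. At Col1a2 the treated peak, chromosome 6, 4454806 to 4459614, was 4809 bp and the untreated peak, 4454934 to 4461795, was 6862 bp. The untreated peak was thus 1.33 times as wide at Col1a1 and 1.43 times as wide at Col1a2.

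The difference at the collagen genes lay at the high-coordinate edge, towards the gene body. At Col1a1 the treated peak ended 1296 bp before the untreated one, whereas the low-coordinate edges differed by 188 bp. At Col1a2 the treated peak ended 2181 bp earlier, and the low-coordinate edges differed by 128 bp. Over all 16153 pairs, a pair being a treated and an untreated peak that meet each other alone, the median shift was 121 bp at the low-coordinate and 122 bp at the high-coordinate edge, in either direction. A larger shift of the high-coordinate edge was found in 1.82% of all pairs for Col1a1 and in 0.452% for Col1a2. Most of those pairs are of narrower peaks. Over the 1112 pairs with both peaks above 4 kb the median shifts were 177 and 176 bp, and the collagen shifts were not ranked among them.

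**Figure D2:**
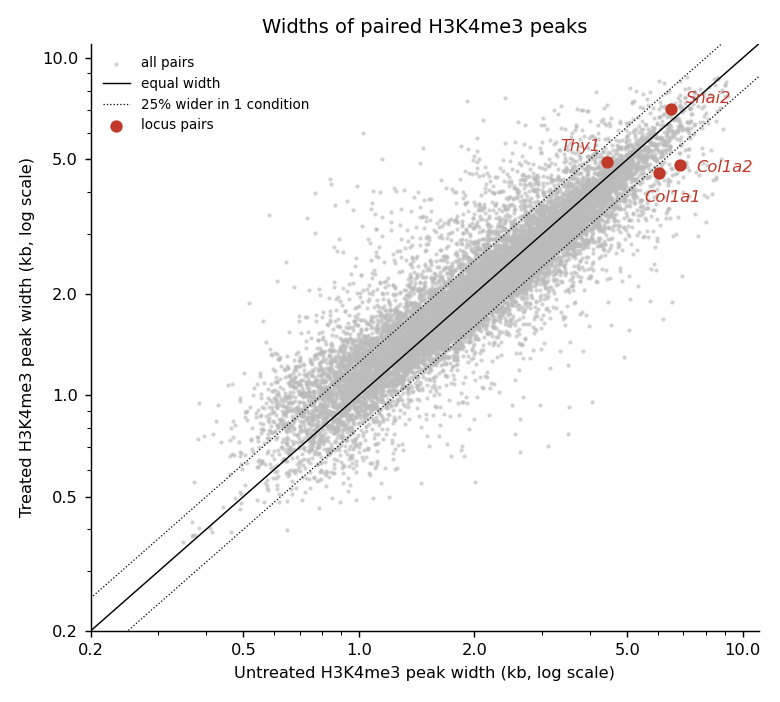
Width in kb of each treated H3K4me3 peak against the untreated peak it pairs with, on log axes, for all 16153 pairs (grey) and the 4 locus pairs (red); the solid line is equal width and the dotted lines mark a peak 25% wider in 1 condition. Col1a1 and Col1a2 lie below the lower dotted line, at 4560 against 6044 bp and 4809 against 6862 bp, and Snai2 and Thy1 lie between the lines, slightly above equal width.

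Paired peaks were found at 4 loci, and their widths went in both directions. On the log2 scale the treated to untreated width ratio was -0.51 at Col1a2, -0.41 at Col1a1, 0.12 at Snai2 and 0.15 at Thy1, against a median of -0.02 and a standard deviation of 0.33 across all pairs. The Col1a1 ratio is that of the first peak alone: with the second, treated-only peak of its window added, the listed H3K4me3 came to 7838 bp (treated) and 6044 bp (untreated), and the log2 ratio turned to 0.37. Of all pairs, 3.35% had a lower ratio than Col1a2 and 5.56% a lower ratio than Col1a1. At Col1a1 and Col1a2 (2 of 4) the untreated peak was at least 25% wider, as it was in 8.61% of all pairs. At none of the 4 was the treated peak at least 25% wider, as it was in 13.1% of all pairs. The ratio varied less among wide peaks: over the 1112 pairs with both peaks above 4 kb the standard deviation was 0.21 and the median -0.05. Of these wide pairs 2.70% had a lower ratio than Col1a2, 4.23% a lower ratio than Col1a1, 14.2% a higher ratio than Snai2 and 11.7% a higher ratio than Thy1.

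Col1a1 also had a second H3K4me3 peak, in treated cells only, at the far end of its window, and listed H3K27me3 peaks lay inside it. The marks are those of the titles. Because the antibody field names others, whether both marks stood at this place was not tested. This peak, chromosome 11, 94813166 to 94816443, was 3278 bp wide and began 11.7 kb after the end of the first treated peak. It lies on the side of the window towards the 3′ end of Col1a1 and the next protein-coding gene in RefSeq order, Sgca, which encodes alpha-sarcoglycan. The nearest untreated H3K4me3 peak was the one at the start of the window, 10.4 kb away. Inside the peak, the treated H3K27me3 list had 3 peaks, 94813629 to 94813990 (362 bp), 94814010 to 94814750 (741 bp) and 94814972 to 94816075 (1104 bp). They were separated by 19 and 221 bp and covered 2207 bp, or 67.3%, of the H3K4me3 peak.

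Few H3K4me3 peaks of the treated list met listed H3K27me3. Of the 18185, 248 met an H3K27me3 peak of treated cells, and 29 of these were treated-only. There were 20 that met 3 or more, and only the one at Col1a1 was treated-only as well. These criteria are traits of the Col1a1 peak itself, and peaks at Col1a1 had been seen beforehand. Nothing is therefore read from its being the only one. The number 3 also rests on breaks of 19 and 221 bp between listed peaks. In 2 treated H3K4me3 peaks more bases were covered by H3K27me3 than at Col1a1, and in 4 a larger share was covered. The 3 H3K27me3 peaks were wide for their list, whose median was 149 bp: 9 of 821 peaks were wider than the 1104 bp peak and 19 were wider than the 741 bp peak. All 3 were listed in treated cells only, as were 70.6% of all treated H3K27me3 peaks. The nearest untreated H3K27me3 peak was 195 kb from the H3K4me3 peak. The nearest input peaks were 605 kb away in treated and 1454 kb in untreated cells, so no input peak stood at this place. No exon or regulatory element was assigned to it, because no mm9 annotation was at hand. The region on the 3′ side of Col1a1 is also used as a landing site for transgenes in some mouse lines. The labels name no transgene, and whether the genome of the treated cells differs from the reference at this place was not tested.

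**Figure D3:**
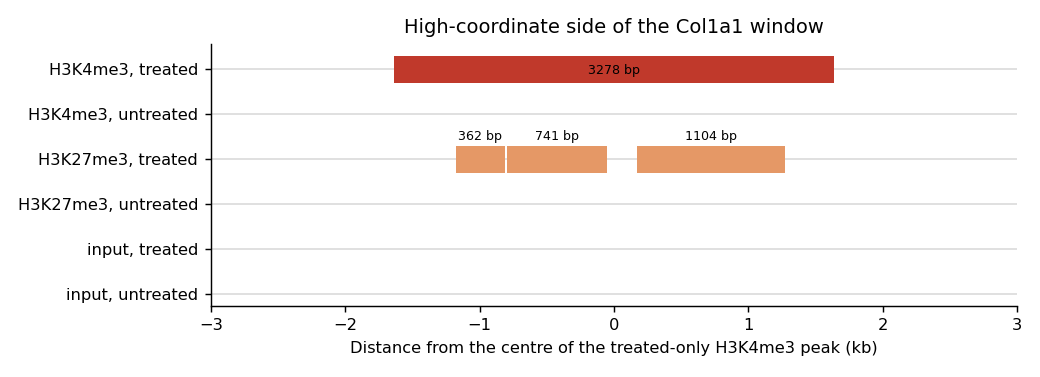
The high-coordinate side of the Col1a1 window, as distance in kb from the centre of the treated-only H3K4me3 peak, with 1 row per library and the width of each peak. The treated H3K4me3 peak of 3278 bp holds 3 treated H3K27me3 peaks of 362, 741 and 1104 bp, and the untreated and input rows are empty.

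Fn1, whose product fibronectin ties cells to the matrix, had an H3K4me3 peak in treated cells only. The peak on chromosome 1, 71696578 to 71701320, was 4743 bp wide and ended 2.68 kb from the high-coordinate end of the 75 kb window, which is the start side of this gene, transcribed towards lower coordinates. In treated cells 749 peaks were wider. The untreated list had no peak in the window, and its nearest one to the treated peak was 91.1 kb away. That untreated peak, 71602711 to 71605446 (2736 bp), lay 23.6 kb below the window and was shared with treated cells (71602904 to 71605040, 2137 bp). Above the window the nearest peaks differed: 71923400 to 71924244 (845 bp, 219 kb away) in treated and 72257619 to 72259405 (1787 bp, 554 kb away) in untreated cells. At Fn1, then, the neighbouring peak below was listed in both conditions, and the nearest treated peak above was not matched.

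Vim also had an H3K4me3 peak in treated cells only. This peak on chromosome 2, 13494235 to 13500942, was 6708 bp wide and covered 41.9% of the 16 kb window. The untreated list had none there. The peaks next to the window were in both lists: below it 13465032 to 13466923 (1892 bp) in treated and 13464764 to 13466967 (2204 bp) in untreated cells, and above it 13714389 to 13716035 (1647 bp) and 13714604 to 13715891 (1288 bp). The nearest untreated peak was 27.3 kb from the treated Vim peak.

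Thy1 had an H3K4me3 peak in both conditions, of similar width. The treated peak on chromosome 9, 43850915 to 43855829, was 4915 bp and the untreated peak, 43850603 to 43855032, was 4430 bp. Both edges of the treated peak lay at higher coordinates, by 312 bp at the low and 797 bp at the high edge, and 4118 bp were common to the 2 peaks. A larger shift of the high-coordinate edge was found in 4.08% of all pairs. Just outside the window, 14.7 kb above it, a treated peak of 3367 bp (43874709 to 43878075) met an untreated peak of 1438 bp (43874685 to 43876122). No rule of the window counts these as Thy1, and Usp2 is the next protein-coding gene on that side in RefSeq order.

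**Figure D4:**
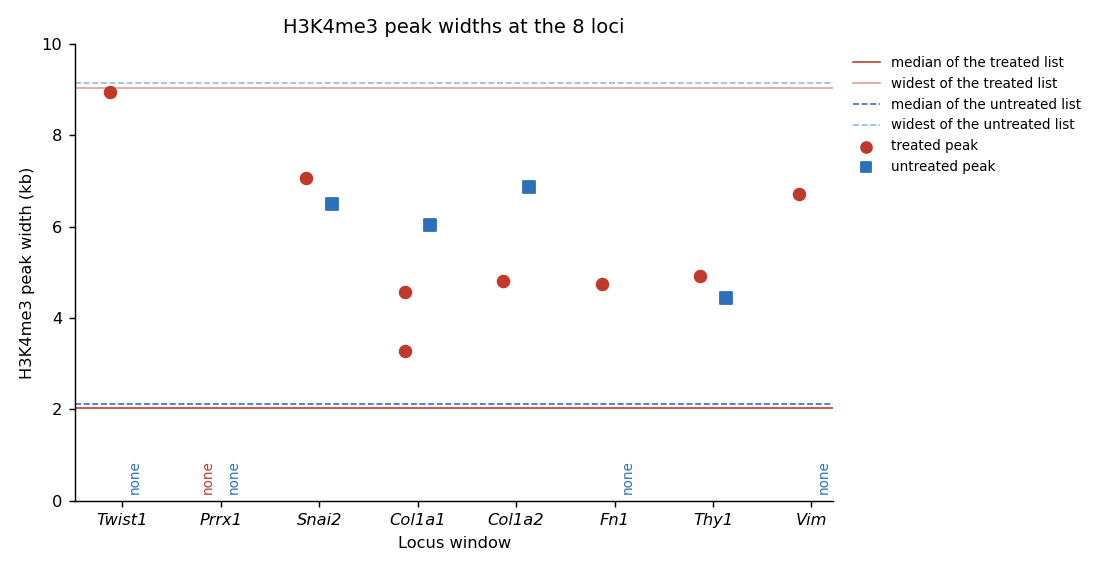
Width in kb of every H3K4me3 peak in the 8 locus windows, treated (red circles) and untreated (blue squares), with lines at the median and the widest peak of each whole list; "none" marks a window without a peak. All 12 peaks lie above the list medians of 2026 and 2115 bp, and Twist1 at 8939 bp lies just under the widest peak of its list.

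All H3K4me3 peaks at these loci were wide for their lists. The 8 treated peaks ran from 3278 to 8939 bp with a median of 4862 bp, against a list median of 2026 bp. The 4 untreated peaks ran from 4430 to 6862 bp with a median of 6274 bp, against 2115 bp. The narrowest, the second Col1a1 peak, was wider than 83.3% of its list, and each of the other 11 was wider than at least 93.3%. By locus, the order of the widest treated peak was Twist1, Snai2, Vim, Thy1, Col1a2, Fn1 and Col1a1. In untreated cells it was Col1a2, Snai2, Col1a1 and Thy1. The high-coordinate edge of Thy1 differed by 797 bp between the lists, and several neighbours in these orders lay closer to each other than that. In treated cells these were Snai2 and Vim (7069 and 6708 bp) and the 4 loci from Thy1 to Col1a1 (4915 to 4560 bp). In untreated cells they were Col1a2, Snai2 and Col1a1 (6862, 6504 and 6044 bp). The Thy1 shift compares conditions at a single edge and does not measure the error of a width. The choice of it is arbitrary, since the same edge differed by 1296 bp at Col1a1 and 2181 bp at Col1a2. Without replicates no order is read within these sets, and the order between them is only that of the listed widths.

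Summed over the 266 kb of windows, listed H3K4me3 peaks covered 45.0 kb in treated and 23.8 kb in untreated cells. The 4 treated peaks without an untreated partner, at Twist1, Fn1, Vim and the far end of Col1a1, were 4 of 8, whereas 10.2% of all treated peaks had no partner. None of the 4 untreated peaks lacked a treated partner, against 4.73% of all untreated peaks. The genes had been picked with peaks of these lists known, so nothing is read from the difference between these shares. Within 100 kb on either side of the windows 16 of 21 treated and 17 of 22 untreated H3K4me3 peaks were shared. The 2 untreated peaks 12.3 to 15.4 kb below the Col1a2 window (4437630 to 4438624 and 4438744 to 4440716) were among the 5 that were not.

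Wide peaks without a partner were rare between 2 and 7 kb and more frequent between 7 and 9 kb. Of the 949 treated peaks of over 4 to 5 kb, 5 had no untreated partner, and that at Fn1 was one of them. Of the 140 of over 6 to 7 kb there were 2 (1.43%), with Vim among them, and of the 2357 of over 3 to 4 kb there were 16 (0.679%), with the second Col1a1 peak among them. Of the 22 treated peaks of over 8 to 9 kb, the class of Twist1, 4 (18.2%) had none. The untreated list gave 5 of 34 in that class (14.7%) and 6 of 1008 (0.595%) at over 4 to 5 kb. Above 9 kb the lists went apart: 2 of 2 treated and 0 of 4 untreated peaks had no partner. Whether the lists had an upper width limit is not known. Whether a broad stretch went unlisted in untreated cells at Twist1, Vim or Fn1, or in both conditions at Prrx1, was not tested.

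**Figure D5:**
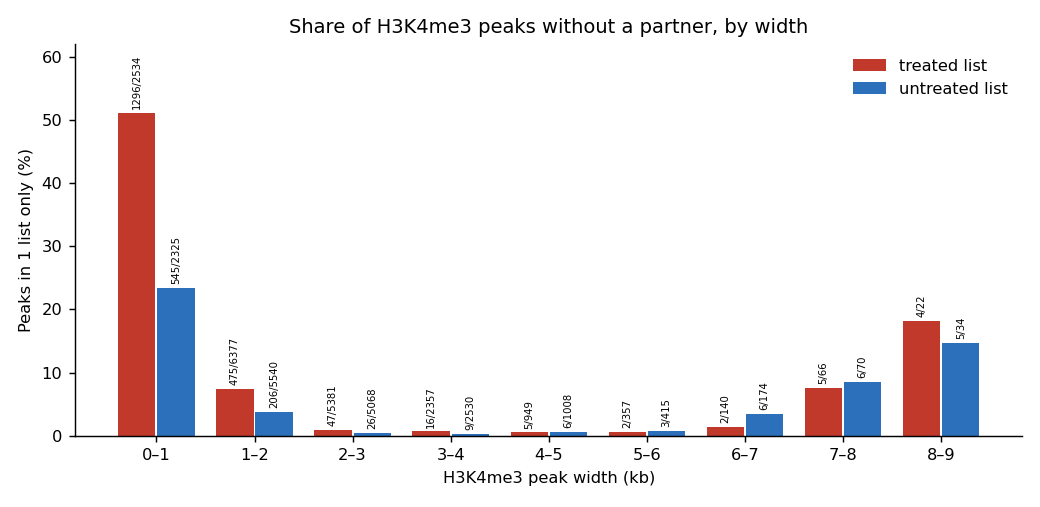
Share of H3K4me3 peaks without an overlapping peak of the other condition, in percent, by peak width in kb, for the treated (red) and untreated (blue) list; the fraction over each bar is the number of such peaks of all peaks in the class, and the 6 peaks over 9 kb are not drawn. Of the classes drawn, the share is highest in the narrowest (51.1% and 23.4%), under 1% between 2 and 6 kb and 18.2% and 14.7% between 8 and 9 kb.

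H3K27me3 was listed at none of the other 7 loci in either condition. Its listed peaks were narrow, with medians of 149 bp (treated) and 211.5 bp (untreated), against 146 and 142 bp for input. Of the H3K27me3 peaks, 70.6% (treated) and 80.5% (untreated) were in 1 list only, against 56.6% and 64.3% of input peaks. Whether the mark itself was absent where no peak was listed was not tested. The nearest H3K27me3 peak outside a window was between 236 and 7752 kb away in treated cells and between 24.0 and 3272 kb away in untreated cells, where the shortest distance was that at Twist1. Input peaks outside the windows were at least 289 kb away. None of the 15 peaks at the loci overlapped an input peak.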

How the data were processed

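ChIP-seq peak lists of MEFs were used, 1 per library. CASAVA 1.7, Bowtie2 2.2.5, MACS 1.4.3, HOMER and mm9 are listed in the submitters' processing notes without saying which step used which. The caller, threshold and control behind each list are not given there. The deposited files hold positions and a strand sign that never varies, and no count, score or fold. Starts were read as counted from 0 and are printed counted from 1. Mark and condition come from the titles. The windows and genes were chosen with earlier results of these data known. Peaks were assigned to a window, and called shared, at an overlap of at least 1 bp, in Python 3.11.15 with numpy 2.4.6 and pandas 2.3.3. The overlap and pairing steps were tested on the untreated H3K4me3 list with known removals and widenings put in. Peaks with a near neighbour were left out of these changes. So were peaks as wide as those at Twist1, Snai2 and Vim and the untreated ones at the collagen genes. All 8 genes are named, and every peak of their windows is given. Other fibroblast and matrix genes were not evaluated, since no mm9 annotation was at hand. Promoter sequences come from RefSeq (GRCm38.p6). The alternatives changed the window, the overlap rule, the minimum width and the treatment of input peaks.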

Additional observations from a re-analysis of the deposited data

How the results depend on the processing

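Of 68 recomputed values, 66 kept their direction and stayed close to the reported value. Close means within 1.5 times a count or sum, or within 1 standard deviation across pairs for a width ratio. Many of these values could not change, so the count is no measure of robustness. None of the peaks at the loci crossed a window edge or overlapped an input peak. The narrowest were 3278 bp (H3K4me3) and 362 bp (H3K27me3), above the minimum widths of 500 and 200 bp. The median of all pairs, -0.02, was too small to turn a ratio. Widening each window by 10 kb on both sides added 1 untreated peak, the 2712 bp one beside Twist1, which raised the untreated H3K4me3 bases of Twist1 from 0 to 2712 and the untreated sum from 23840 to 26552 bp. When the peaks of a locus were summed, the log2 ratio of Col1a1 turned from -0.41 to 0.37, because the second treated peak then counts. When a peak within 5 kb counted as shared, an alternative chosen after seeing the data, 3 in place of 4 treated peaks lacked a partner, since Twist1 then had one. At 1 kb, or at 50% of the shorter peak, 4 lacked one. No paired analysis was possible because each group holds 1 library. No depth was given, so how depth bears on presence or width could not be assessed, and the lists hold no score, so a stricter list could be made by width only.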
